A study of Mus musculus with 16 samples.

Results

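The adhesion molecules by which endothelial cells (ECs) hold leukocytes at the vessel wall were followed in bulk RNA-seq of mouse pulmonary ECs. They were taken by gene name as Icam1, Vcam1, Sele, Selp, Icam2, Cd34 and Podxl, and all 7 were found among the 54532 genes listed for each of 16 libraries. The first experiment held male WT C57/BL6J mice, adult and without a transgene. Saline (n = 4) or LPS at 10 mg/kg (n = 6) was instilled into the trachea. LPS is lipopolysaccharide, an outer-membrane molecule of Gram-negative bacteria that sets off inflammation. The second experiment held Fgfr1 loxP/loxP mice (n = 3, called loxP here) and their Fgfr1 iΔEC/iΔEC littermates (n = 3, called iΔEC), which also carry VE-cadherin-CreERT2. This Cre recombinase is driven by the promoter of an endothelial junction gene and acts after tamoxifen, and it removes the fibroblast growth factor receptor Fgfr1. Both of these groups received tamoxifen by the study's account and 2 mg/kg LPS, so the second experiment holds no saline library. The study calls the mice with the deletion adult. Every group was sampled at 24 h, from cells selected with magnetic beads as CD31+ CD45-. Nothing in the labels says that each library is a separate mouse, so the p-values measure the spread between these libraries.

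Leukocytes leave the blood in steps. Selectins, which bind sialylated and fucosylated glycans, slow them to a roll, after which leukocyte integrins bind the immunoglobulin-family molecules ICAM-1, ICAM-2 and VCAM-1 for firm arrest. Sele (E-selectin) is made by ECs after an inflammatory stimulus. Selp (P-selectin) is stored in the Weibel-Palade bodies of ECs and the alpha granules of platelets, and its messenger is induced by inflammatory stimuli in the mouse. CD34 and podocalyxin (Podxl) are sialomucins that face the blood and can carry glycans that selectins bind.

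On GRCm38, Sele lies on chromosome 1 from 164048234 to 164057677 and Selp on the same strand from 164115264 to 164150026. The pair is 57586 bases apart. Cd34 is on the same chromosome from 194938819 to 194961279. Icam1 is on chromosome 9 from 21015985 to 21028817. Vcam1 is on chromosome 3 from 116109949 to 116129688, Icam2 on chromosome 11 from 106377656 to 106388075 and Podxl on chromosome 6 from 31519488 to 31563981, all on the reverse strand. All 7 are annotated as protein-coding. Icam1, Vcam1, Selp and Cd34 overlap an annotated antisense gene, and Selp also a long non-coding RNA. The strand setting of the counting is not given in the sources used here, so reads of these genes and of their antisense partners could not be told apart.

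Promoters from RefSeq on GRCm38.p6 were matched for 4 of the 7 genes, and those of Icam1, Sele and Selp are shown because every LPS library was above every saline library in these genes. Each sequence holds the 250 bases before the RefSeq start, which is the base after the window, 5′ to 3′ on the strand of the gene. Positions below are relative to that start. For Sele and Selp it is the gene start given above, whereas for Icam1 it lies upstream of it. Capitals mark matches, on either strand, to the RelA and c-Rel type site GGAAATTCC, the AP-1 site TGANTCA, the ETS site AGGAAG and TATAAA. No match overlapped another.
Icam1, chr9:21015690-21015939: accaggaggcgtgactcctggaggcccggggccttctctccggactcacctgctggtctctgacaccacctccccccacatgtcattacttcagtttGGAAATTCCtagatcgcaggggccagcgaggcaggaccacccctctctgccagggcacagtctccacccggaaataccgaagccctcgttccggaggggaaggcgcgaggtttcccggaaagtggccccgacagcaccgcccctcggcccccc
Sele, chr1:164047984-164048233: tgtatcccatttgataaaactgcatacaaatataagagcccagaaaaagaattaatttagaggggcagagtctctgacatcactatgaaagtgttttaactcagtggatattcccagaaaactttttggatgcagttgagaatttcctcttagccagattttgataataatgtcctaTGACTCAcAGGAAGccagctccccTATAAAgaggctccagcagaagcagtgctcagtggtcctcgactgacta
Selp, chr1:164115014-164115263: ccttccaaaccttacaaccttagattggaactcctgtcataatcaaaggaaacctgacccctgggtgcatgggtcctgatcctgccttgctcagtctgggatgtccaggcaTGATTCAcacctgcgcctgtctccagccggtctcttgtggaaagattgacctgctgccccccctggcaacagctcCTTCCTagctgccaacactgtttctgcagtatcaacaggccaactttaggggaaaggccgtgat
The capitals in Icam1 are GGAAATTCC, at −153 to −145 relative to the start. This site is found in 0.286% of 32851 promoter windows of this length. In Sele the capitals are TGACTCA from −73, AGGAAG from −65 and TATAAA from −49, and in Selp TGATTCA from −139 and CTTCCT, the ETS site on the other strand, from −64. The AP-1 site is found in 6.75% of the windows, the ETS site in 29.5% and TATAAA in 12.4%. The 10-base NF-kB consensus was also searched. It is found in 7.25% of all windows and was matched in none of these 4, which says only that its letters are not in these windows. The window of Cd34 held a single match, to the ETS site, from −142.

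The first comparison asks how the adhesion molecules differ between ECs of LPS and saline mice. Sele, Selp, Icam1 and Cd34 were called higher, Podxl was called lower, and Vcam1 and Icam2 did not pass the test. The largest of these changes was that of Sele, whose mean was 17.4 times the saline mean. The test was limma on log2(FPKM + 1) over 14893 genes, and a gene was called at a Benjamini-Hochberg adjusted p of 0.05 or less. FPKM is a fragment count scaled by gene length and by a size factor of each library, which in the first experiment was not its total reads. So 4 of the 7 genes were called higher and 1 lower, where 29.5% of all genes tested were called higher and 23.7% lower. With an added limit of 1 on the log2 scale, Sele, Selp and Icam1 were called higher, against 11.9% of all genes, and none lower, against 6.79%. The median log2 fold change was 0.77 over the 7 genes and 0.01 over all genes tested.

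Sele was the least abundant of the 7 transcripts per length in saline. It measured 2.67, 1.02, 0.981 and 0.995 FPKM in saline 1 to 4, from 51 to 103 reads per library. In LPS it ranged from 11.8 to 36.7 FPKM, with a median of 27.6. Every LPS library was above every saline library, with means of 1.42 ± 0.837 FPKM (SD, n = 4) and 24.6 ± 9.79 FPKM (SD, n = 6). The log2 fold change was 3.36 (SE 0.32, limma adjusted p = 1.42e-05, two-sided exact permutation p = 0.00952). It is on the log2(FPKM + 1) scale and understates the change of a gene this low.

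Selp also rose, from a level that varied more among the saline libraries. It measured 7.18, 2.72, 0.787 and 1.54 FPKM in saline 1 to 4. In LPS the lowest, median and highest values were 9.50, 13.8 and 27.1 FPKM. The groups did not overlap, and saline 1 was nearest to LPS. The means were 3.06 ± 2.86 FPKM (SD, n = 4) and 15.0 ± 6.32 FPKM (SD, n = 6), and the log2 difference was 2.14 (SE 0.39, limma adjusted p = 0.000945, exact permutation p = 0.00952). Sele was above Selp in 6 of 6 LPS libraries and in 1 of 4 saline libraries.

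Icam1, the ligand of the leukocyte integrins LFA-1 and Mac-1, was the most abundant of the 7 transcripts per length in LPS. It measured 81.7, 45.5, 61.9 and 44.0 FPKM in saline 1 to 4, and between 221 and 359 FPKM in LPS, with a median of 307. The lowest LPS library was well above the highest saline library. The means were 58.3 ± 17.6 FPKM (SD, n = 4) and 295 ± 51.5 FPKM (SD, n = 6), which is 5.07 times the saline mean, and the log2 fold change was 2.35 (SE 0.21, limma adjusted p = 8.38e-06, exact permutation p = 0.00952).

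Vcam1, the ligand of the integrin VLA-4, was the least abundant of the 7 per length in LPS. It measured 7.04, 5.91, 4.80 and 3.76 FPKM in saline 1 to 4. In LPS it ranged from 4.58 to 14.3 FPKM, with a median of 8.47. The groups overlapped, and 4 of 6 LPS libraries were above all saline libraries. The means were 5.38 ± 1.41 FPKM (SD, n = 4) and 8.84 ± 3.34 FPKM (SD, n = 6). The log2 fold change of 0.58, with a 95% interval from 0.03 to 1.14, did not pass the limma test after adjustment (adjusted p = 0.0701, exact permutation p = 0.0762). It passed without saline 1 (0.70, limma adjusted p = 0.0476) and without LPS 1 (0.73, limma adjusted p = 0.0160). Vcam1 was also called higher when libraries were scaled on endothelial markers (1.23, limma adjusted p = 0.00029).

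Icam2, a constitutive EC molecule that binds LFA-1, was lower on average in LPS without passing the test. It measured 241, 206, 285 and 221 FPKM in saline 1 to 4. In LPS it spread from 78.9 to 237 FPKM around a median of 160. LPS 2 and LPS 4 lay among the saline libraries, and the other 4 were below them. The means were 238 ± 34.1 FPKM (SD, n = 4) and 166 ± 58.3 FPKM (SD, n = 6). The log2 fold change was −0.60, with a 95% interval from −1.21 to 0.01 (limma adjusted p = 0.0890, exact permutation p = 0.0571). Without LPS 2 it was −0.72 and passed (limma adjusted p = 0.0445). The scaling also changed this result. Icam2 was called lower on total reads (−0.80, limma adjusted p = 0.0212) and with quantile normalization (−1.18, limma adjusted p = 0.00206). With libraries scaled on endothelial markers its sign turned, to 0.16 (limma adjusted p = 0.482).

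Of the sialomucins, Cd34 was called higher and Podxl lower, though each call was lost under 1 other scaling. Cd34 was at 0.23 with quantile normalization (limma adjusted p = 0.338), and Podxl at −0.02 when libraries were scaled on endothelial markers (limma adjusted p = 0.950). With a block on the replicate number Cd34 was not called either (0.72, limma adjusted p = 0.0828), whereas Podxl was (−0.87, limma adjusted p = 0.0448). Cd34 measured 56.5, 50.5, 67.7 and 49.1 FPKM in saline 1 to 4, and from 61.0 to 126 FPKM in LPS with a median of 103. Only LPS 1 lay within the saline range. The means were 56.0 ± 8.45 FPKM (SD, n = 4) and 98.6 ± 27.0 FPKM (SD, n = 6), and the log2 fold change was 0.77 (SE 0.21, limma adjusted p = 0.0109, exact permutation p = 0.0190).

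Podxl measured 273, 245, 260 and 265 FPKM in saline 1 to 4, the narrowest relative spread of the 7 genes in saline. In LPS it ranged from 85.4 to 223 FPKM, with a median of 157. No LPS library reached the lowest saline library. The means were 261 ± 12.0 FPKM (SD, n = 4) and 159 ± 49.6 FPKM (SD, n = 6), and the log2 fold change was −0.78 (SE 0.24, limma adjusted p = 0.0181, exact permutation p = 0.00952). The groups were thus apart for 3 of 7 genes in the higher direction, against 22.7% of all genes tested, and for 1 of 7 in the lower direction, against 16.7%. A permutation p of 0.00952 is the smallest that 6 libraries against 4 can give.

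**Figure D1:**
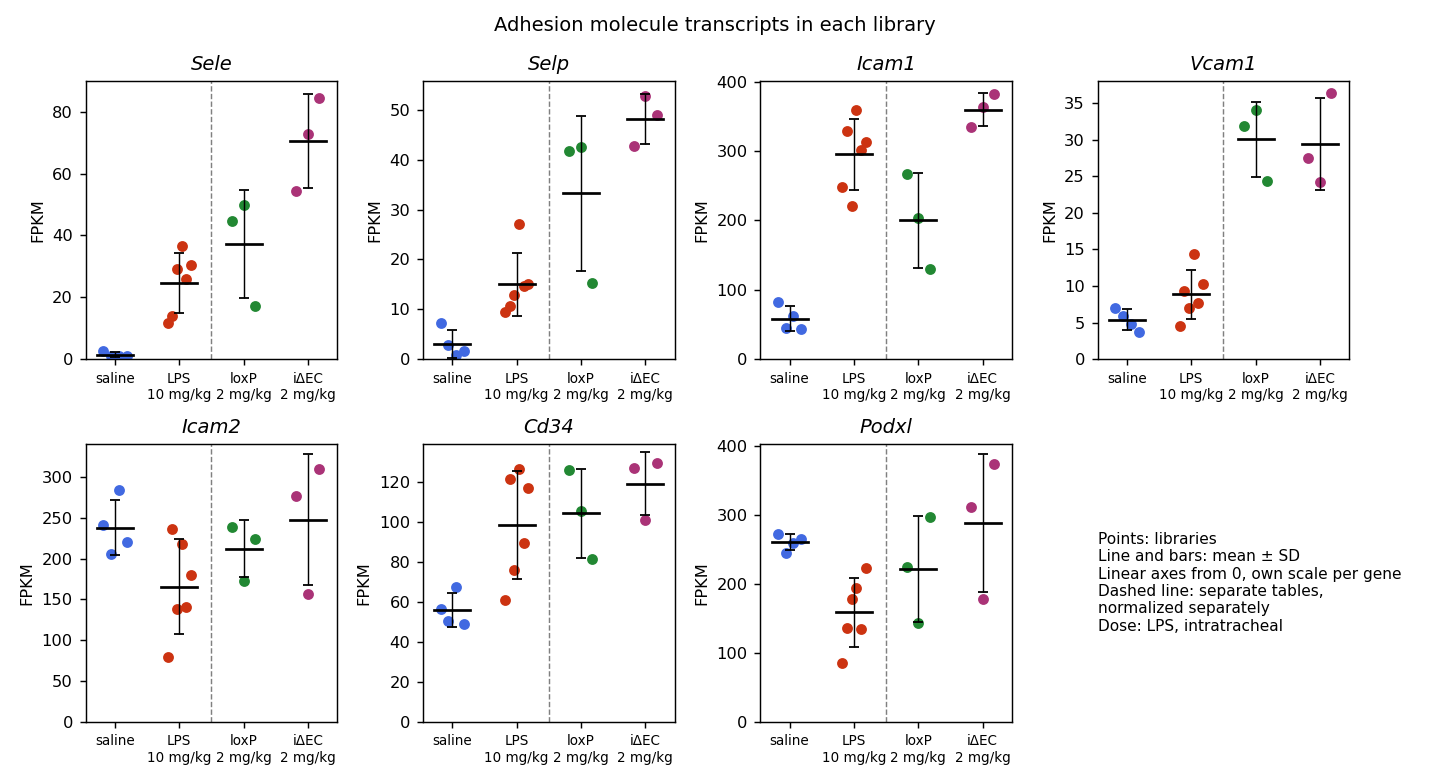
FPKM of the 7 genes on linear axes, with 1 point per library, a line at the mean and bars of 1 SD, for saline (n = 4), LPS (n = 6), loxP (n = 3) and iΔEC (n = 3). Sele, Selp and Icam1 were higher in all 6 LPS libraries than in any saline library, Podxl was lower in all 6, and values left and right of the dashed line were normalized separately.

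The marker genes of the cell fraction moved along with these genes. Endothelial identity was present in all libraries: all 12 endothelial markers had reads in every library, and Cdh5, which encodes VE-cadherin, measured 710 ± 56.0 FPKM in saline (SD, n = 4) and 394 ± 97.6 FPKM in LPS (SD, n = 6). Of the 12 markers 7 fell and none rose, with a median log2 fold change of −0.68. Their summed level was 6048, 3641, 4466 and 3783 FPKM in saline 1 to 4, and 1583 to 3695 FPKM in LPS with a median of 3164. LPS 1 had the lowest endothelial sum of the LPS libraries, at 1583 FPKM against 2401 to 3695 FPKM in the others. It was also the lowest LPS library in Sele, Selp, Vcam1, Icam2, Cd34 and Podxl. Without it Sele, Selp, Icam1 (2.39), Cd34 (0.90) and Podxl (−0.61) were called as with it, Vcam1 was also called, and the median of the endothelial markers was −0.53 on the log2 scale. The most abundant of them was Cldn5, the junction protein claudin-5. Pecam1, which encodes the selected CD31, did not pass the test (−0.17 on the log2 scale, limma adjusted p = 0.516). In bulk RNA, fewer cells of a type and less RNA per cell cannot be told apart.

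Leukocyte markers were higher in LPS although CD45+ cells had been depleted. Ptprc, which encodes CD45, rose by 2.19 on the log2 scale, with means of 6.97 ± 3.13 FPKM in saline (SD, n = 4) and 34.6 ± 11.4 FPKM in LPS (SD, n = 6) (limma adjusted p = 0.000112). All 6 leukocyte markers rose, and their sum was 343, 150, 90.1 and 125 FPKM in saline 1 to 4 against 955 to 2358 FPKM in LPS, median 1755, with Tyrobp the most abundant and LPS 1 the highest. Of 8 neutrophil markers 7 rose, of which S100a9 was the most abundant, and their sum was 1386 FPKM in saline 1 against 68.0 to 302 FPKM in saline 2 to 4. In LPS it was 1297 to 6653 FPKM. Saline 1 was also the highest saline library in Sele, Selp, Icam1 and Vcam1. Of 8 macrophage markers 6 rose and 1 fell, and the sum, mostly Lyz2, went from a median of 692 to 3719 FPKM, again with LPS 1 the highest. Ly6g and Marco were at 0 in at least 1 saline library.

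Platelets are the other main source of Selp. Of their 6 markers tested 3 rose and none fell. The sum was 51.4, 41.9, 20.5 and 30.6 FPKM in saline 1 to 4 and 50.01 to 147 FPKM in LPS, median 76.2. Ppbp was the most abundant in saline and Pf4 in LPS, and Gp1bb was at 0 in at least 1 library of each group. Of the remaining lists, markers fell in 4 of 6 cases for fibroblasts, 3 of 5 for lymphocytes, 3 of 10 for epithelium, 2 of 7 for mural cells and 1 of 1 for mesothelium, and 3 of 4 erythroid markers rose. These stand beside 23.7% lower and 29.5% higher over all genes tested, so the epithelial and mural shares were near that of all genes. The epithelial sum, led by the surfactant gene Sftpc, was 1151 to 2973 FPKM in saline and 293 to 1023 FPKM in LPS, so epithelial transcripts were abundant in the saline fraction. The part of these markers in the values of the 7 genes was not tested.

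The scaling decided some of the calls. When libraries were scaled on the 12 endothelial markers, which moved the median of all genes tested to 0.60, Sele (3.89), Icam1 (3.10), Selp (2.72), Cd34 (1.52) and Vcam1 (1.23) were called higher on the log2 scale. Of all 15013 genes tested under this scaling, 50.1% were called higher and 4.94% lower. On that scale Podxl was at −0.02 and Icam2 at 0.16 (limma adjusted p = 0.482), and neither was called. With quantile normalization Cd34 was not called, while Icam2 was called lower (−1.18, limma adjusted p = 0.00206). Quantile normalization called 24% of all genes tested higher and 28.8% lower. Sele, Selp and Icam1 were called higher under all 4 scalings.

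**Figure D2:**
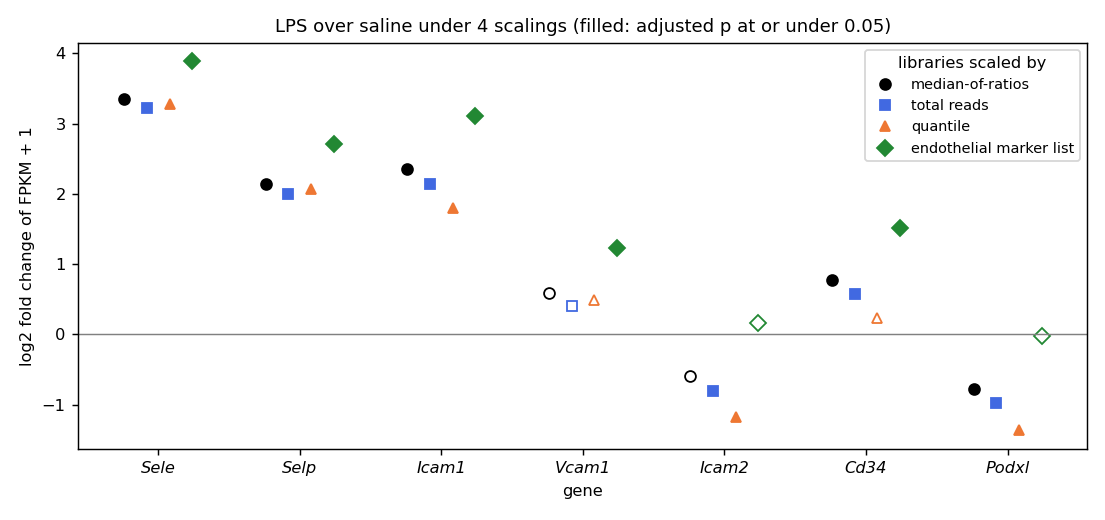
log2 fold changes of FPKM + 1, LPS over saline, for the 7 genes under 4 scalings of the libraries, with filled symbols at an adjusted p of 0.05 or less. Sele, Selp and Icam1 stayed above 1 under each scaling, whereas Podxl and Icam2 went from below 0 to −0.02 and 0.16 when libraries were scaled on the endothelial markers.

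Ratios of genes within a library are not changed by scaling a library by a single factor, though quantile normalization can change them. The ratio of Icam1 to Icam2 FPKM was 0.199 to 0.339 in saline and 1.39 to 3.15 in LPS, so Icam1 passed Icam2 in 6 of 6 LPS libraries and in 0 of 4 saline libraries. The ratio of Cd34 to Podxl was 0.185 to 0.260 in saline and 0.428 to 0.890 in LPS, again with no overlap, though Podxl stayed above Cd34 in every library. Both ratios show unequal change of the pair and leave the direction of either gene unsaid. As a share of the summed FPKM of the 7 genes, Icam1 took 9.25% ± 2.08 in saline (SD, n = 4) and 39.3% ± 5.93 in LPS (SD, n = 6). Podxl went from 42.1% ± 3.19 to 20.6% ± 4.40, and Icam2 from 38.1% ± 2.52 to 21.1% ± 3.89. The sum itself was 623 ± 61.5 FPKM in saline (SD, n = 4) and 767 ± 175 FPKM in LPS (SD, n = 6).

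**Figure D3:**
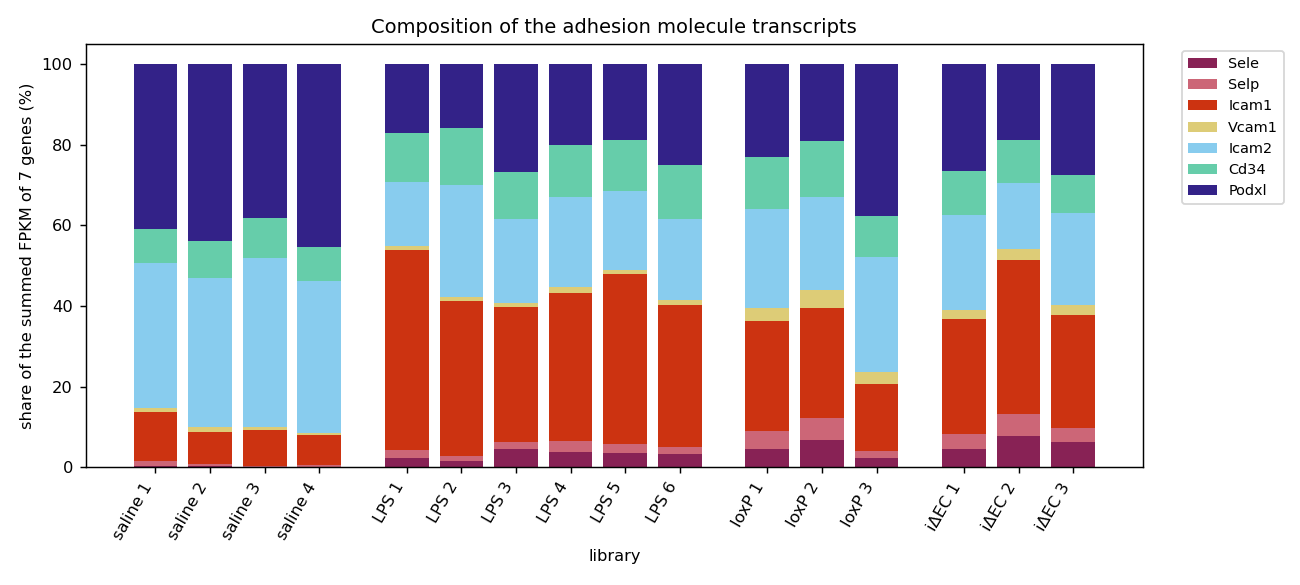
Share in percent of the summed FPKM of the 7 genes in each of the 16 libraries, stacked by gene. Podxl and Icam2 made up most of the sum in saline, and Icam1 took the largest share in all 6 LPS libraries.

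The order of the transcripts per length differed between the groups. In saline the medians ran from Podxl (263 FPKM) and Icam2 (231 FPKM) through Icam1 (53.7 FPKM) and Cd34 (53.5 FPKM) to Vcam1 (5.35 FPKM), Selp (2.13 FPKM) and Sele (1.01 FPKM). Podxl and Icam2, Icam1 and Cd34, Vcam1 and Selp, and Selp and Sele overlapped in range, whereas the steps from Icam2 to Icam1 and from Cd34 to Vcam1 did not. In LPS the medians ran from Icam1 through Icam2, Podxl, Cd34, Sele and Selp to Vcam1. Here the step from Cd34 to Sele was free of overlap, and all other neighbours overlapped in range. Within single libraries Icam1 was above Icam2 and Selp above Vcam1 in all 6, while Icam2 was above Podxl in 3 of 6.

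The counter-receptors and other genes of leukocyte adhesion were read from 7 lists, with the 7 genes themselves left out. Among selectins and their sialomucin ligands 3 of 7 genes tested rose and none fell. These were Spn (CD43, a leukocyte sialomucin), from 3.62 ± 1.14 to 66.0 ± 18.6 FPKM, Selplg (PSGL-1, the main ligand of P-selectin), from 7.78 ± 6.89 to 49.5 ± 15.2 FPKM, and Cd44, from 10.7 ± 3.04 to 67.8 ± 21.8 FPKM as SD over 4 and 6 libraries. All of them are carried by leukocytes.

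Among the leukocyte integrins that bind ICAMs and VCAM-1, 7 of 8 rose and none fell. The log2 fold changes were largest for the Mac-1 chain Itgam (5.08), the shared chain Itgb2 (4.31), the LFA-1 chain Itgal (3.48) and Itgax (2.95). Among the other immunoglobulin-family and junction molecules 4 of 13 rose and 4 fell. Pvr, the poliovirus receptor homolog, rose by 1.32 and L1cam by 1.17 on the log2 scale, and the junction molecule F11r (JAM-A) rose by 0.72. The laminin receptor Bcam fell by 0.72.

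Among the enzymes that build selectin ligands 5 of 13 rose and 1 fell. The fucosyltransferase Fut4 rose from 0.411 ± 0.0507 to 10.0 ± 4.07 FPKM (SD, n = 4 and n = 6), the branching enzyme Gcnt1 rose by 1.65 and the fucosyltransferase Fut7 by 0.92 on the log2 scale. The sulfotransferase Chst2 fell from 5.59 ± 1.87 to 1.22 ± 0.382 FPKM (SD, n = 4 and n = 6). In the Weibel-Palade body list, which holds the store of P-selectin and its release machinery, 3 of 13 rose and 4 fell. Cd63, a membrane protein of this body and of lysosomes, rose by 2.02 and the release factor Unc13d by 1.25. Vwf, the main cargo of the body, fell by 1.05 on the log2 scale.

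Cortical partners, which link ICAM-1 and VCAM-1 tails to actin, rose in 7 of 19 cases and fell in 1. The scaffold Slc9a3r1 (2.10), filamin A (Flna, 1.96), the small GTPase Rhog (1.76) and ezrin (Ezr, 1.43) had the largest log2 fold changes. Of the sheddases, which cut adhesion molecules off the cell, 6 of 8 rose and 1 fell. Adam8 (2.81), Mmp9 (2.54) and Mmp14 (2.38) rose and the neutrophil elastase Elane fell by 1.20 on the log2 scale. These shares stand beside 29.5% higher and 23.7% lower over all genes tested. All 6 leukocyte and 7 of 8 neutrophil markers rose in the same libraries (medians 2.94 and 2.76 on the log2 scale), and their part in the values of all 7 lists was not tested. The median log2 fold change was 2.60 in the integrin list, 0.88 in the sheddase list and between 0.03 and 0.24 in the other 5 lists.

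Genes with the most similar pattern to each of the 7 were sought among 7765 genes of at least 5 FPKM on average, by Pearson's r of log2(FPKM + 1) over the 10 libraries. These r share the difference between LPS and saline, so they are given with the r left after centring each library on its group. For Icam1 the nearest were Lcn2 (0.993, and 0.894 after centring), Pla1a (0.993 and 0.873) and Ctps (0.991 and 0.876). For Sele they included Hif1a (0.988 and 0.851) and Galnt1 (0.982 and 0.773). For Selp they were Itgb3 (0.983 and 0.941), the beta chain of platelet and endothelial integrins, Dbn1 (0.980 and 0.933) and Grk5 (0.967 and 0.872).

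For Vcam1 the nearest were Rras2 (0.956 and 0.941), Pls3 (0.952 and 0.940) and Sparc (0.942 and 0.914). For Icam2 they were Il17rc (0.986 and 0.979), Arl2bp (0.982 and 0.974) and Gpx7 (0.978 and 0.968). For Cd34 they were Fkbp10 (0.977 and 0.946), Meox1 (0.964 and 0.920) and Efemp2 (0.963 and 0.910). For Podxl they included Numb (0.990 and 0.986) and Pdgfd (0.989 and 0.977). Centring moved these r by little for Podxl, Icam2 and Vcam1 and lowered them most for Sele. Among the 7 genes themselves, Sele and Icam1 had an r of 0.958 and 0.442 after centring, and Cd34 and Icam2 had an r of 0.066 and 0.952 after centring. Cd34 and Icam2 thus varied together from library to library within a group. In LPS both were lowest in LPS 1, which had the lowest endothelial marker sum, and highest in LPS 2 and LPS 4, which had the highest, and the part of this sum in their values was not tested.

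The second comparison asks how the loss of endothelial Fgfr1 bears on these molecules under LPS. Fgfr1 itself measured 2.80 ± 0.178 FPKM in loxP and 1.08 ± 0.369 FPKM in iΔEC (SD, n = 3 each), with no overlap (−0.88 on the log2 scale, limma adjusted p = 0.962). None of the 7 genes was called higher or lower. The share of all 14945 genes tested that was called was also 0% higher and 0% lower. An unadjusted p under 0.05 was reached by 661 genes in limma and by 608 in limma-voom on the read numbers. Both counts are a smaller share of the genes tested than the 0.05 that chance alone gives. With the replicate block the count was 1154, a larger share. The deleted gene did not pass either. An exact permutation test of 3 libraries against 3 cannot go below 0.1.

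In Sele, Selp and Icam1 every iΔEC library was above every loxP library. Groups apart in the higher direction were found for these 3 of 7 genes, against 6.02% of all genes tested, and in the lower direction for 0 of 7, against 4.09%. Among the 12 endothelial markers 3 were apart in the higher direction.

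Icam1 measured 266, 204 and 130 FPKM in loxP 1 to 3, and 334, 364 and 382 FPKM in iΔEC 1 to 3. The means were 200 ± 68.4 and 360 ± 24.0 FPKM (SD, n = 3 each). The log2 fold change was 0.90, with a 95% interval from 0.25 to 1.56 before adjustment (limma adjusted p = 0.962, exact permutation p = 0.1). The loxP libraries were more spread than the iΔEC libraries, and loxP 3 was the lowest.

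Sele measured 44.5, 49.9 and 17.1 FPKM in loxP 1 to 3, and 54.3, 72.8 and 84.4 FPKM in iΔEC 1 to 3. The log2 fold change was 1.02, with a 95% interval from 0.05 to 1.99 (limma adjusted p = 0.962, exact permutation p = 0.1). Again loxP 3 was the lowest, and the other loxP libraries were near the lowest iΔEC library.

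Selp measured 41.8, 42.7 and 15.2 FPKM in loxP 1 to 3, and 42.8, 52.7 and 48.9 FPKM in iΔEC 1 to 3. The log2 fold change was 0.65, with a 95% interval from −0.27 to 1.57 (limma adjusted p = 0.962, exact permutation p = 0.1). The groups were barely apart. Without loxP 3 the log2 fold changes were 0.62 for Icam1, 0.55 for Sele and 0.18 for Selp.

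The other 4 genes overlapped between the groups. Vcam1 measured 32.0, 34.1 and 24.3 FPKM in loxP 1 to 3 and 27.6, 24.2 and 36.4 FPKM in iΔEC 1 to 3 (log2 −0.04, 95% interval −0.50 to 0.42). Icam2 measured 239, 173 and 224 FPKM in loxP and 276, 157 and 311 FPKM in iΔEC (log2 0.18, 95% interval −0.52 to 0.87). Library 2 was the lowest of each group in Icam2 and Podxl. Cd34 measured 126, 105 and 81.4 FPKM in loxP and 127, 101 and 129 FPKM in iΔEC (log2 0.20, 95% interval −0.27 to 0.68). Podxl measured 224, 143 and 297 FPKM in loxP and 312, 179 and 375 FPKM in iΔEC (log2 0.38, 95% interval −0.51 to 1.26). All 4 had a limma adjusted p of 0.962 or more. Leaving out 1 library moved Podxl between 0.09 (without loxP 2) and 0.69 (without iΔEC 2), and Cd34 between 0.04 (without loxP 3) and 0.35 (without loxP 1). The sign of the other genes turned. Vcam1 ran from −0.20 (without iΔEC 3) to 0.086 (without iΔEC 2), and Icam2 from −0.014 (without iΔEC 3) to 0.48 (without iΔEC 2).

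Same-numbered libraries of the second experiment deviated together across genes, so the differences within these pairs are also given. No label states the pairs, and with so few libraries such a match can arise by chance, which was not tested. Podxl was higher in iΔEC in 3 of 3 pairs, by 0.47, 0.32 and 0.34 on the log2 scale, and the pairs spread less than the groups. The SE of its log2 fold change was 0.12 in the paired fit with the replicate block and 0.37 without it, and it was called in neither (paired limma adjusted p = 0.622). Icam1 was higher in 3 of 3 pairs (0.33, 0.83 and 1.55), as were Sele (0.28, 0.54 and 2.24) and Selp (0.03, 0.30 and 1.62), with the largest difference of each in pair 3. Icam2 and Cd34 were higher in 2 of 3 pairs and Vcam1 in 1 of 3.

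**Figure D4:**
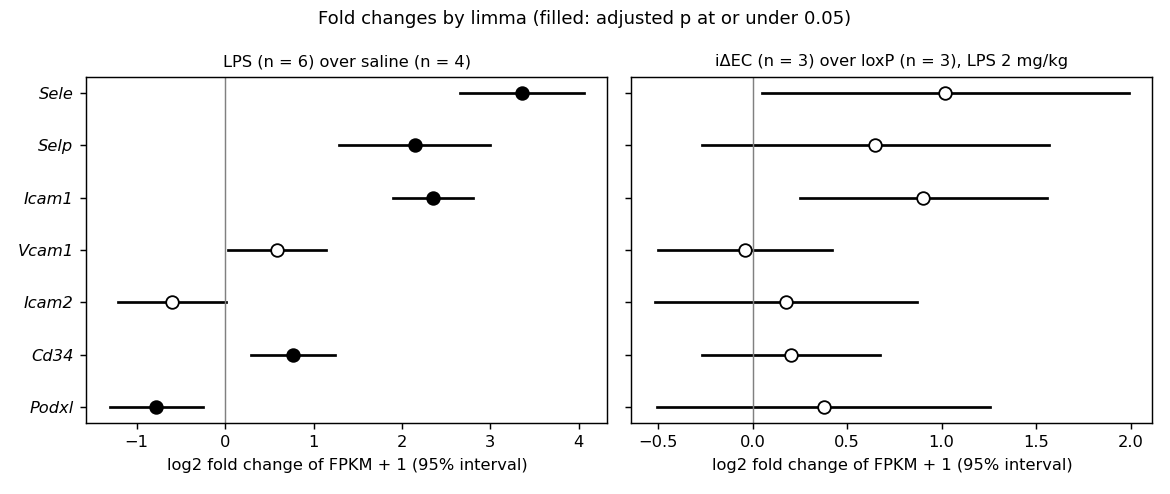
log2 fold changes of FPKM + 1 with 95% intervals for LPS over saline (left) and iΔEC over loxP (right), by limma, on separate horizontal scales, with filled points at an adjusted p of 0.05 or less. 5 points are filled on the left and none on the right, where the intervals of Sele and Icam1 lie above 0 before adjustment.

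Endothelial markers were also higher on average in iΔEC. All 12 had a positive log2 fold change, with a median of 0.31 and none called, and their sum was 3244, 2605 and 2687 FPKM in loxP 1 to 3 against 4111, 2961 and 3842 FPKM in iΔEC 1 to 3. All 10 epithelial markers were lower, also with none called, and their sum was 980, 1734 and 2972 FPKM in loxP 1 to 3 and 498, 1146 and 904 FPKM in iΔEC 1 to 3. The highest epithelial sum belonged to loxP 3, the library lowest in Icam1, Sele and Selp. In loxP 3 the macrophage (3250 FPKM), neutrophil (2613 FPKM), mural (131 FPKM) and mesothelial (0.721 FPKM) sums were also the highest of this experiment. Leukocyte and platelet sums were highest in iΔEC 2, fibroblast and erythroid sums in iΔEC 3 and the lymphocyte sum in loxP 1. The leukocyte sum was 580, 783 and 774 FPKM in loxP and 394, 957 and 610 FPKM in iΔEC. The neutrophil sum was 1175, 2563 and 2613 FPKM in loxP 1 to 3 and 756, 2454 and 1542 FPKM in iΔEC 1 to 3, lower in iΔEC in each pair. None of the 6 leukocyte, 8 neutrophil and 6 lymphocyte markers had a positive log2 fold change (medians −0.25, −0.48 and −0.42), and none was called. The platelet sum was 122, 210 and 218 FPKM in loxP and 199, 247 and 183 FPKM in iΔEC. Of 7 platelet markers tested 6 had a positive log2 fold change, with a median of 0.24 and none called. Scaled on the endothelial markers, Sele was at 0.74, Icam1 at 0.62, Selp at 0.37 and Podxl at 0.09 on the log2 scale. On that scale Cd34 was at −0.079, Icam2 at −0.11 and Vcam1 at −0.32. None of these was called, and the median of all genes was at −0.21. The part of these markers in the values was not tested beyond that.

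No gene of the 7 lists was called in iΔEC over loxP either. Log2 fold changes among the largest in size in each list are given as values. They were Glycam1 (−2.30) and Selplg (−0.34) among selectins and ligands, Pvr (0.70) and Alcam (−0.46) among the immunoglobulin family, and Itgb7 (−0.41) and Itgax (−0.35) among the integrins. Glycam1, a secreted mucin of high endothelial venules, measured 41.1 ± 54.6 FPKM in loxP and 4.69 ± 7.53 FPKM in iΔEC (SD, n = 3 each), so its spread exceeded its mean. The enzymes gave Chst4 (−1.001) and Fut7 (−0.78), the Weibel-Palade list Myrip (0.58), the cortical partners Vcl (0.59), and the sheddases Adam8 (−0.48) and Mmp9 (−0.46). Of these, Pvr and Vcl had groups apart. Pvr measured 19.4 ± 3.48 FPKM in loxP and 31.8 ± 2.37 FPKM in iΔEC (SD, n = 3 each).

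The order of the medians in the second experiment began with Icam2, Podxl and Icam1 in loxP, whose ranges overlapped, and with Icam1, Podxl and Icam2 in iΔEC, where Icam1 and Podxl and also Podxl and Icam2 overlapped. In both groups Cd34, Sele, Selp and Vcam1 followed in that order, and Vcam1 had the lowest median. The steps among these 4 were free of overlap in iΔEC, whereas in loxP Sele, Selp and Vcam1 overlapped as neighbours. Icam1 was above Icam2 in 2 of 3 loxP and 3 of 3 iΔEC libraries. The share of Icam1 in the summed FPKM was 23.6% ± 6.22 in loxP and 31.6% ± 5.82 in iΔEC (SD, n = 3 each). Side by side, Vcam1 measured 3.76 to 14.3 FPKM in the first experiment and 24.2 to 36.4 FPKM in the second. Dose, genotype, tamoxifen and normalization differ between the experiments, so these values are set side by side only and were not tested against each other.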

How the data were processed

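By the study's methods and the processing notes, the authors aligned reads to GRCm38 with HISAT2 2.0.5, counted them on genes with featureCounts 1.5.0-p3 and deposited FPKM with gene lengths. FPKM times length, divided by the value of a single read in the same library, gave whole reads for 100% of values (tolerance 0.01), with 13478726 to 19043015 reads on genes per library. At low values the reads limit precision, and they are not independent molecules. Between replicates the chi-square of the reads averaged at least 7.28 over genes, so no library was a copy of another. For the second experiment, 11 symbols were repaired from the first.

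FPKM was scaled by median-of-ratios factors within each table, which left the first experiment as deposited, so that FPKM as deposited is the same fit there. Genes averaging 0.5 FPKM or more were compared as log2(FPKM + 1) with limma 3.58.1 in R 4.3.3 (lmFit, eBayes with trend), with Benjamini-Hochberg adjustment over all genes tested. The count model of the study was not refitted, and the recovered reads entered as an alternative. Exact permutation tests were two-sided (scipy 1.17.1). On simulated data the LPS over saline design recovered 68% of 2-fold and 100% of 4-fold changes among 14915 genes, with 11 false calls. The iΔEC over loxP design recovered 31% and 100% among 14908 genes, with 13 false calls. The simulated reads varied independently between libraries, with the same preset spread for all genes, and the changed genes averaged at least 5 FPKM. That spread was not fitted to these libraries, so the shares do not give the sensitivity reached in them. Alternatives were the pseudocount (0.1), no filter, 3 other scalings, FPKM as deposited, limma-voom on the reads, no trend, a replicate block and leaving out each library.

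Same-numbered iΔEC and loxP libraries deviated together (r = 0.248, 0.178 and 0.187 across genes, which are not independent replicates), so the numbers were taken as pairs from the data, as no label states a shared litter or day for them. Named genes were the 7 genes, up to 4 called genes per list by the size of the log2 fold change (or, with none called, 2 given as values), the 3 most similar genes each, and Ptprc, Pecam1 and Fgfr1. Some genes that this rule names are not reported here. The 7 pathway and 11 marker lists and the 7 genes were chosen with earlier results of these data known. Cd99 was not analysed here.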

Additional observations from a re-analysis of the deposited data

Results flagged for a closer look

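Sele in saline 1 measured 2.67 FPKM, far above the other saline libraries, which lay between 0.981 and 1.02 FPKM. The summed lymphocyte markers in saline 3 were 24.0 FPKM, far below the other saline libraries at 104 to 134 FPKM. Of 36 group values of saline and LPS examined in this way, 2 stood apart, and chance gives about 1 in 20, or 1.8 of them. The loxP and iΔEC groups were too small for this rule and were not examined. Without saline 1 the calls of Sele, Selp, Icam1, Cd34 and Podxl in LPS over saline were as with it, and Vcam1 was also called.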

How the results depend on the processing

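Sele, Selp and Icam1 were called higher in LPS over saline under every alternative and without any single library, with ranges on leaving out 1 library of 3.22 to 3.58, 1.83 to 2.56 and 2.23 to 2.52 on the log2 scale. The number of genes called lower was 1. It was 2 on total reads, 2 with quantile normalization, 0 with endothelial marker scaling, 0 with the log2 limit of 1, where 3 genes were called in all, and 1 to 2 on leaving out 1 library (2 without LPS 2). Icam2 joined on total reads (−0.80) and quantile normalization (−1.18), and on the endothelial markers it was reversed at 0.16; the cause was not tested. Total reads moved the median of all genes to −0.14. Endothelial scaling changed the genes called to 7527 higher and 742 lower, from 4399 and 3529. In iΔEC over loxP no gene was called under any alternative. There Icam2 (−0.11) and Cd34 (−0.079) changed sign on the endothelial markers, and leaving out 1 library gave −0.20 to 0.086 for Vcam1 and −0.014 to 0.48 for Icam2, both across 0, 0.094 to 0.69 for Podxl, 0.039 to 0.35 for Cd34, 0.62 to 1.14 for Icam1, 0.55 to 1.29 for Sele and 0.18 to 0.89 for Selp. The numbers of LPS and saline libraries did not pair (r = 0.097, −0.162, −0.209 and −0.117, with no same-numbered libraries closest to each other both ways). With the replicate block 4 of the 7 genes were called there, Cd34 not (0.72, limma adjusted p = 0.0828), and 3438 genes higher and 2561 lower. In iΔEC over loxP the replicate block changed no call, with 1154 genes at an unadjusted p under 0.05. The 51 to 103 reads of Sele in saline limit its fold change.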
